A study of Homo sapiens with 3 samples.

Results

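SCARNA9, SCARNA2 and SCARNA16 are small Cajal body-specific RNAs (scaRNAs), and their reads were described in 3 small RNA libraries of HEK293, a cell line long established from human embryonic kidney. They were found under the older names that the deposited files use, mgU2-19/30, mgU2-25/61, HBII-382 and ACA47, and SCARNA2 has an entry under each of its 2 older names. They are 3 of the 20 scaRNAs and of the 259 small RNAs of the snoRNA and scaRNA classes with reads, and all 3 had reads in every library. The libraries form 1 group, with no treatment given in the labels. According to the labels, the cells were lysed for a phenol/chloroform extraction, small RNA was cleaned up on magnetic beads, and the Ion Total RNA-Seq Kit v2 was used for the libraries. Nothing in the labels ties a library to a culture of its own. The tests judge differences against how the libraries vary, and that variation may be technical. Library numbers follow deposition order and carry no other meaning.

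Cajal bodies are nuclear compartments in which the small nuclear RNAs of the spliceosome are modified. Guide RNAs with boxes C and D direct 2′-O-methylation, and those with boxes H and ACA direct pseudouridylation. SCARNA9 and SCARNA2 are long box C/D guides for the U2 small nuclear RNA, and both are known to be cut into shorter stable RNAs that hold a single guide domain. SCARNA16 is a box H/ACA guide assigned to the U1 small nuclear RNA, and the hairpin of the miRNA miR-6516 is annotated over its 3′ end.

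SCARNA9 is 353 nt long and lies at chr11:93721513-93721865 on the plus strand of GRCh38 (GENCODE 29), within introns of CEP295, a gene for a centriole protein. None of the 7 annotated CEP295 transcripts has an exon over it. RefSeq places the same 353 nt 1 base further on, so positions within SCARNA9 that are set against the annotation carry an uncertainty of 1 base. SCARNA2 is 420 nt long and lies at chr1:109100193-109100612, plus strand, inside the single exon of the long non-coding RNA AL356488.2. SCARNA16 is 187 nt long and lies at chr17:77089307-77089493, plus strand, within introns of SEC14L1, and exons of 2 of 18 transcripts of the non-coding host gene SNHG20 also cover it.

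The sequences below are the stretches that the reads covered, shown so that read positions can be set against the boxes and the ends of these units. In the first 3, capitals mark every TGATGA, the core of box C, and every CTGA, the motif of box D. Not every CTGA match need be a box D. In the SCARNA16 fragment, capitals mark the ACA box, which lies 3 nt before the end of the RNA. In both miRNAs, capitals mark the seed, bases 2 to 8. The first 4 are GENCODE 29 sequences on GRCh38 and the miRNAs come from RefSeq on GRCh38.p14, all on the plus strand.
SCARNA9 5′ guide domain, chr11:93721542-93721621: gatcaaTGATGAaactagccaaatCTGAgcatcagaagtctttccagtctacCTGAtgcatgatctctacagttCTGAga
SCARNA9 3′ guide domain, chr11:93721797-93721866: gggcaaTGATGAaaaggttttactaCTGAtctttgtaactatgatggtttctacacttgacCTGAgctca
SCARNA2 3′ domain, chr1:109100536-109100612: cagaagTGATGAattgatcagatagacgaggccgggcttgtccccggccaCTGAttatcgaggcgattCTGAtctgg
SCARNA16 3′ fragment, chr17:77089447-77089493: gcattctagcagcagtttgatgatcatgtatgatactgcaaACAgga
hsa-miR-6516-5p, chr17:77089428-77089449: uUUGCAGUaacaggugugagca
hsa-miR-6516-3p, chr17:77089469-77089490: aUCAUGUAugauacugcaaaca

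Both SCARNA9 domains are annotated as snoRNA genes of their own inside SCARNA9, 80 nt and 70 nt long, whereas the SCARNA2 domain was taken from the reads. TGATGA occurred 1 time in each of the 3 C/D domains and began at base 7 in all of them. On the same strand it occurs in 2.66%, 2.33% and 2.53% of the windows of equal length (80, 70 and 77 nt) cut from long intergenic non-coding RNAs, and on either strand in 5.12%, 4.49% and 4.91%. CTGA occurred 3 times in the SCARNA9 5′ domain and 2 times in each of the other domains. It is a short motif, found on the same strand in 37.1%, 33.2% and 36.0% of such windows and on either strand in 59.3%, 54.2% and 57.7%. The SCARNA16 fragment also holds TGATGA, at base 18, and no CTGA. In windows of its length, 47 nt, TGATGA occurs in 1.53% on the same strand and 2.97% on either strand. CTGA occurs there in 23.4% and 40.4%. The seeds of the miR-6516 arms differ from each other, and the bases of both arms are identical to SCARNA16 at the same place.

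The libraries held 11958 to 19989 counts, of which 151 to 265 fell on scaRNAs, so most values below rest on few reads. Library 2 stood apart: 27.3% of its counts were short reads, here reads of up to 40 nt, against 11.9% and 12.1% in libraries 1 and 3. It was also the shallowest. The shortest reads had 18 nt and the longest had 238, 181 and 193 nt in libraries 1, 2 and 3, so a full-length SCARNA9 or SCARNA2 exceeded every read obtained. A count of 0 allows a share of up to 0.015%, 0.0251% and 0.0157% of the counts in libraries 1, 2 and 3, taking 3 counts as the floor. Intervals and floors cover counting error only, because the reads carry no molecular identifiers.

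Of the 3 RNAs, SCARNA9 had the most counts in each library, although SCARNA16 came close in library 1 with 40 counts and an overlapping interval. SCARNA9 had 44, 67 and 55 counts in libraries 1, 2 and 3. These were 0.220%, 0.560% and 0.288% of the library counts, with a mean of 0.356% ± 0.18 (SD, n = 3). Its share was highest in library 2, whose exact 95% interval of 0.434% to 0.711% lay above those of library 1 (0.160% to 0.295%) and library 3 (0.217% to 0.375%). Of the scaRNA counts it took 29.1%, 25.3% and 31.6%, a narrower range than its share of all counts.

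SCARNA16 had 40, 7 and 4 counts, or 0.200%, 0.0585% and 0.0210% of the library counts, with a mean of 0.0932% ± 0.094 (SD, n = 3). Its level was set by library 1: the highest share was 9.55 times the lowest, and the mean without library 1 was 0.0397%. The exact interval in library 1, 0.143% to 0.272%, did not overlap those of library 2 (0.0235% to 0.121%) and library 3 (0.00571% to 0.0536%).

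SCARNA2 had 8, 4 and 22 counts, or 0.0400%, 0.0335% and 0.115% of the library counts, with a mean of 0.0629% ± 0.045 (SD, n = 3). Library 3 was high and the mean without it was 0.0367%. The reads were listed under different entries by library: the entry mgU2-25/61 held all 12 reads of libraries 1 and 2, and the entry HBII-382 held all 22 reads of library 3. Positions in the HBII-382 entry were moved by 340 nt so that the highest positions seen in both entries coincide.

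**Figure D1:**
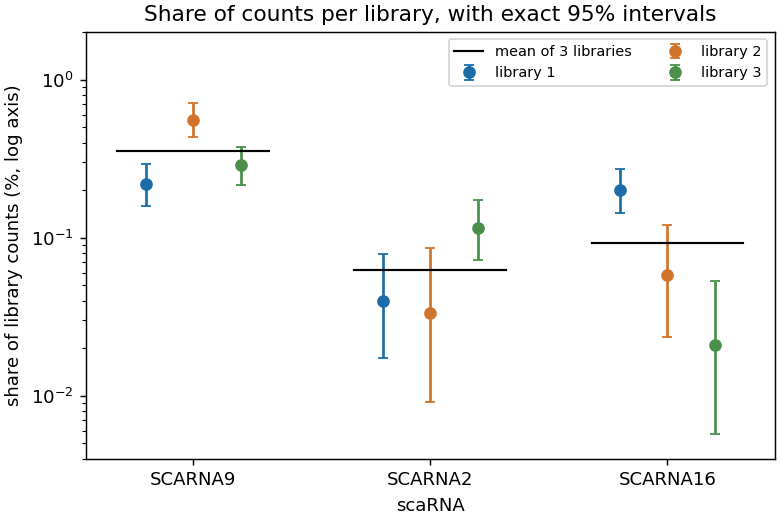
Share of each library's snoRNA and scaRNA counts (%, log axis) for SCARNA9, SCARNA2 and SCARNA16. Points are single libraries with exact 95% binomial intervals and horizontal bars are means of 3 libraries; SCARNA9 lies between 0.220% and 0.560%, and SCARNA16 spreads over 9.55-fold.

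In the order of mean shares among the 20 scaRNAs, SCARNA15 came first with 0.486% ± 0.60 (SD, n = 3), then SCARNA9, SCARNA16 and SCARNA2, and SCARNA1 followed with 0.0625% ± 0.020 (SD, n = 3). The first place of SCARNA15 rested on library 2: it had 21, 141 and 33 counts, fewer than SCARNA9 in libraries 1 and 3, and without library 2 its mean was 0.139%, against 0.254% for SCARNA9. Neighbouring means in this order from SCARNA15 to SCARNA9 and from SCARNA16 through SCARNA2 to SCARNA1 differed by less than their SD. Among all 259 RNAs the ranks of SCARNA9, SCARNA16 and SCARNA2 were 75, 137 and 159. The 3 RNAs took 60.9%, 29.4% and 46.6% of the scaRNA counts in libraries 1, 2 and 3, and the other 17 scaRNAs took the rest.

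RNAs of different length were set side by side as CPM per 100 nt of RNA, CPM being the share of library counts scaled as usual. On this scale SCARNA9 had 624, 1587 and 816, SCARNA16 had 1070, 313 and 112, and SCARNA2 had 95.3, 79.6 and 274 in libraries 1, 2 and 3. SCARNA9 was above SCARNA2 in 3 of 3 libraries, with a mean log2 ratio of 2.87 ± 1.38 (SD), that is 7.29-fold. The ratio was 4.41-fold without library 2 and 3.68-fold with reads over 40 nt alone, and its mean log2 value was 3.51 without library 3. SCARNA9 over SCARNA16 had a mean log2 ratio of 1.48 ± 1.97 (SD), and SCARNA16 was the higher in library 1. SCARNA16 over SCARNA2 had a mean log2 ratio of 1.39 ± 2.44 (SD), and SCARNA2 was the higher in library 3. None of these 3 pairs could pass a two-sided exact sign-flip permutation test, which cannot give a p below 0.25 with 3 libraries: p was 0.25, 0.5 and 0.5, and 0.5 for each after Benjamini-Hochberg adjustment. Counts per length treat the RNA as evenly covered, which it was not.

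The reads of SCARNA9 fell mostly on its guide domains. The 5′ guide domain (positions 29 to 109) had 16, 33 and 19 reads in libraries 1, 2 and 3, or 40.1% ± 8.0 of the SCARNA9 reads (SD, n = 3). The 3′ guide domain (positions 284 to 353) had 26, 23 and 21 reads, or 43.9% ± 13 (SD, n = 3). The domains thus had 68 and 70 of the 166 reads, and the 5′ domain had more reads than the 3′ domain in library 2 only.

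The 2 domains differed in the length of what was read. In the 5′ domain, 63 of 68 reads were short, with a median of 29 nt. Of these 63, 58 began at position 29 or 30 and 55 ended at position 57 or 58, and the commonest read ran from 30 to 58 (31 reads: 6, 15 and 10). In the GENCODE frame it starts at the first base of the domain and ends 1 base after the first CTGA, which occupies domain bases 25 to 28. In the RefSeq frame, where the domain begins at position 29, both its ends lie 1 base further on within the domain. The 5 longer reads of this domain began at position 29 or 30, reached lengths of 43 to 81 nt and ended between positions 71 and 109.

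In the 3′ domain, 63 of 70 reads were longer than 40 nt, with a median of 70 nt, which is the length of the annotated domain. Of the 70 reads, 60 began at position 284 and 60 ended at position 352 or 353, and the commonest read ran from 284 to 353 (34 reads: 11, 9 and 14). In the RefSeq frame this read is the annotated 3′ domain from end to end, and in the GENCODE frame it begins 1 base before it. The commonest reads of both domains thus begin at the first base of their domain in different frames, not in the same one. The GENCODE sequence of positions 284 to 353 occurs in no other GENCODE gene. The nested domain gene, shifted by 1 base, does not hold it in full. The sequence in the RefSeq frame was not searched.

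Short reads made up 93.8%, 93.9% and 89.5% of the 5′ domain reads and 3.85%, 26.1% and 0% of the 3′ domain reads in libraries 1, 2 and 3. The 0% rests on 0 of 21 reads. The difference averaged 82.4 percentage points ± 13 (SD, n = 3) and had the same direction in 3 of 3 libraries. The exact sign-flip permutation p was 0.25, two-sided, the smallest that 3 libraries allow, and this comparison was chosen after the reads had been seen. The ranges of the domains did not overlap.

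Other SCARNA9 reads were few, 6 of them on the opposite strand. The leader before the 5′ domain had 0, 5 and 8 reads, which began at positions 1 to 4, ended at positions 39 to 46 and had a median of 40 nt. They overlap the first bases of the 5′ domain. The 9 reads between the domains (1, 4 and 4) all lay in a GT repeat of 36 nt at positions 154 to 189 or passed its start or its end by 1 base. Reads from this repeat cannot be assigned to SCARNA9 with certainty: its last 19 nt occur in 773 other GENCODE genes.

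Annotated copies also limit the assignment of the 5′ domain reads. A gene of the same family as the 5′ domain, at chrX:20136306-20136385 on the minus strand, differs from it at 2 of 80 bases and at 0 of the first 29. In the GENCODE frame the commonest 5′ domain read therefore occurs in both, and the RefSeq frame was not checked. The copies on chromosomes 4 and 7 differ at 11 and 12 of 80 bases, of which 4 and 6 are in the first 29. Next to it on chromosome X lies a copy of the 3′ domain, chrX:20136066-20136135, that differs at 5 of 70 bases.

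**Figure D2:**
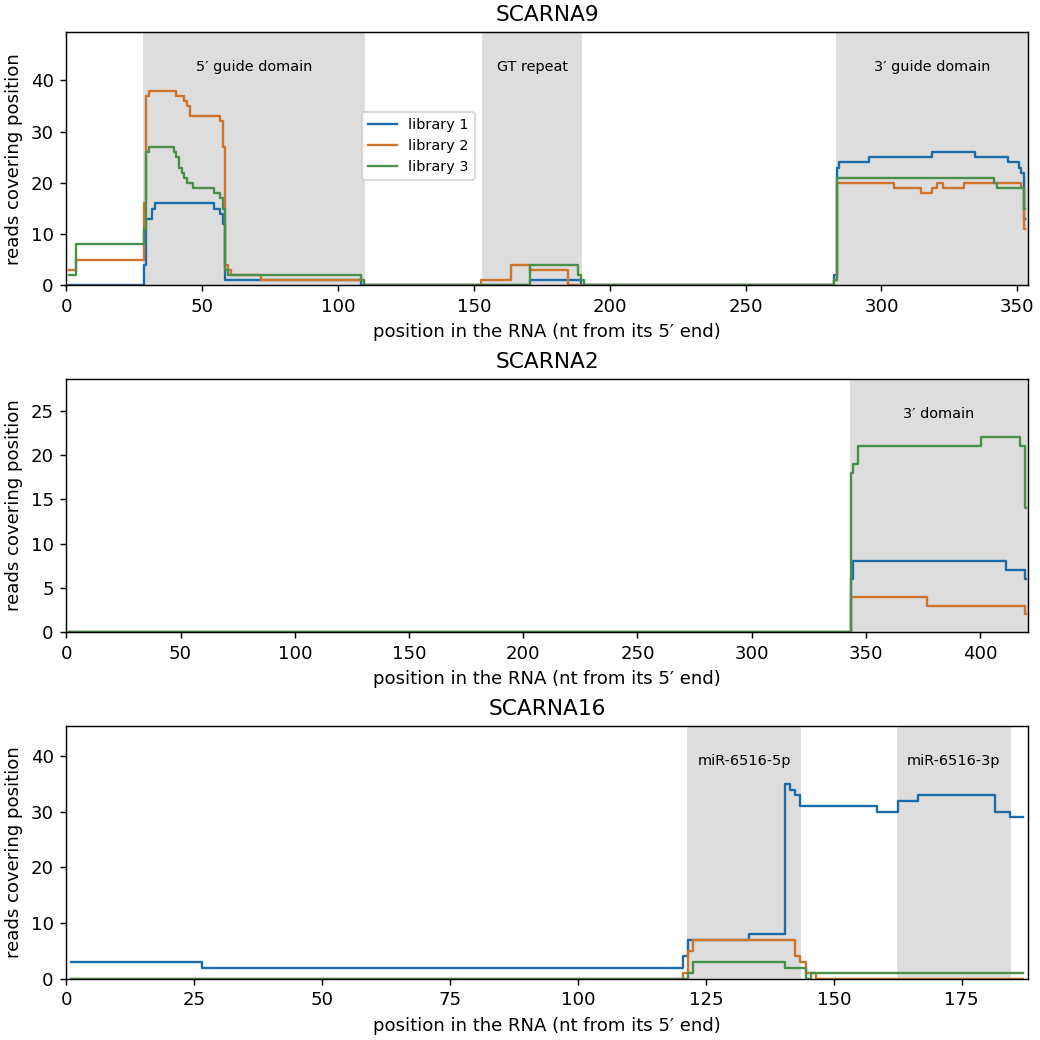
Reads covering each position (vertical axes, reads) along SCARNA9, SCARNA2 and SCARNA16 (horizontal axes, nt from the 5′ end), with 1 line per library and grey areas for the annotated or read-defined units. SCARNA9 is covered at the start of the 5′ guide domain and over the whole 3′ guide domain, SCARNA2 over its last 77 nt alone, and SCARNA16 over the miR-6516-5p arm in all 3 libraries and over its 3′ fragment mainly in library 1.

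SCARNA2 reads came from 1 place. All 34 reads lay in positions 344 to 420, which are 77 of the 420 positions, or 18.3%, and the same 77 positions were covered in every library. In library 3 the positions follow from the placement of the HBII-382 entry, which set its last position to 420. Of the 34 reads, 28 began at position 344 (6, 4 and 18 in libraries 1, 2 and 3) and 31 ended at position 419 or 420. The commonest read ran from 344 to 420 (17 reads: 4, 2 and 11). The first 343 nt, which hold the other guide domain, had 0 reads in each library. The HBII-382 entry, to which the library 3 reads belong, has no position seen beyond the stretch placed on these last bases. The mgU2-25/61 entry had 0 reads anywhere in library 3, also over the last 77 nt. Library 3 therefore cannot show whether the 5′ part was empty, and only libraries 1 and 2 bear on it.

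The median SCARNA2 read had 76, 75 and 76 nt in libraries 1, 2 and 3, and 32 of 34 reads were longer than 40 nt. For 24 of the 34 reads (6, 3 and 15) the read length differed from the stretch of reference it was placed on, by 1 nt in 20 of them and by at most 4 nt. Such reads made up 70.6% of the SCARNA2 reads, against 17.2% to 24.3% of all counts in the 3 libraries, and 6.02% and 9.80% of the SCARNA9 and SCARNA16 reads. What the difference stems from was not tested. The 77 nt sequence is shared with the overlapping AL356488.2.

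Most SCARNA16 reads were of 2 kinds, 1 seen in every library and 1 almost entirely in library 1. The miR-6516-5p arm, at positions 122 to 143, had 5, 7 and 3 reads in libraries 1, 2 and 3. No other unit of SCARNA16 had reads in every library. These were 12.5%, 100% and 75.0% of its reads. Their median length was 22 nt and 14 of 15 had 20 to 24 nt. They began at position 121 (3 reads), 122 (8 reads) or 123 (4 reads), so their 5′ ends varied by 1 base to either side of the annotated start, which shifts the seed. The exact annotated sequence was read 3 times, 2 times in library 1 and 1 time in library 2. The miR-6516-3p arm, at positions 163 to 184, had 3, 0 and 0 reads, of which 1 was the exact annotated sequence.

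The other kind was a fragment of the 3′ end. Reads from positions 134 to 146 to positions 181 to 187 numbered 28, 0 and 1 in libraries 1, 2 and 3, with a median of 47 nt. Of these, 24 ran from 141 to 187, all in library 1, and 17 of the 24 came from a single record, that is reads listed with the same place and length. This fragment starts within the last bases of the miR-6516-5p arm, holds the whole miR-6516-3p arm and ends at the 3′ end of SCARNA16. Library 1 also held 2 reads of the full 187 nt, the only full-length reads of the 3 RNAs. Its last 2 reads were a 26 nt read of positions 1 to 26 and an 18 nt read of positions 141 to 158, inside the fragment. Positions covered numbered 187, 26 and 65 in libraries 1, 2 and 3, and 67 when library 1 was left out. The sequences of both arms and of the fragment also occur in MIR6516 and SNHG20, and the counts do not tell these genes apart.

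Read lengths followed these units. Short reads were 40.9%, 67.2% and 52.7% of the SCARNA9 reads in libraries 1, 2 and 3, a mean of 53.6% ± 13 (SD, n = 3). They were 25%, 100% and 75.0% of the SCARNA16 reads, a mean of 66.7% ± 38 (SD, n = 3), where library 1 was low and the other libraries rest on 7 and 4 reads. They were 0%, 25% and 4.55% of the SCARNA2 reads, which were 0 of 8, 1 of 4 and 1 of 22 reads. In the other 17 scaRNAs, 76.3%, 91.4% and 48.4% of the counts were short, so SCARNA9 lay below them in libraries 1 and 2 and above them in library 3. SCARNA15 alone supplied 195 of these 339 counts, and 190 of the 195 were short. In the 16 scaRNAs without it, a choice made after seeing the data, 63.2%, 65.2% and 28.3% of the counts were short, and SCARNA9 lay below them in library 1 and above them in libraries 2 and 3.

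Reads of 20 to 24 nt, the size of miRNAs, were 7, 7 and 2 of the SCARNA16 reads, 0, 6 and 2 of the SCARNA9 reads and 0, 0 and 1 of the SCARNA2 reads. Summed over libraries these were 16 of 51, 8 of 166 and 1 of 34 reads. SCARNA16 thus had the most reads of this size although it had fewer reads than SCARNA9.

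**Figure D3:**
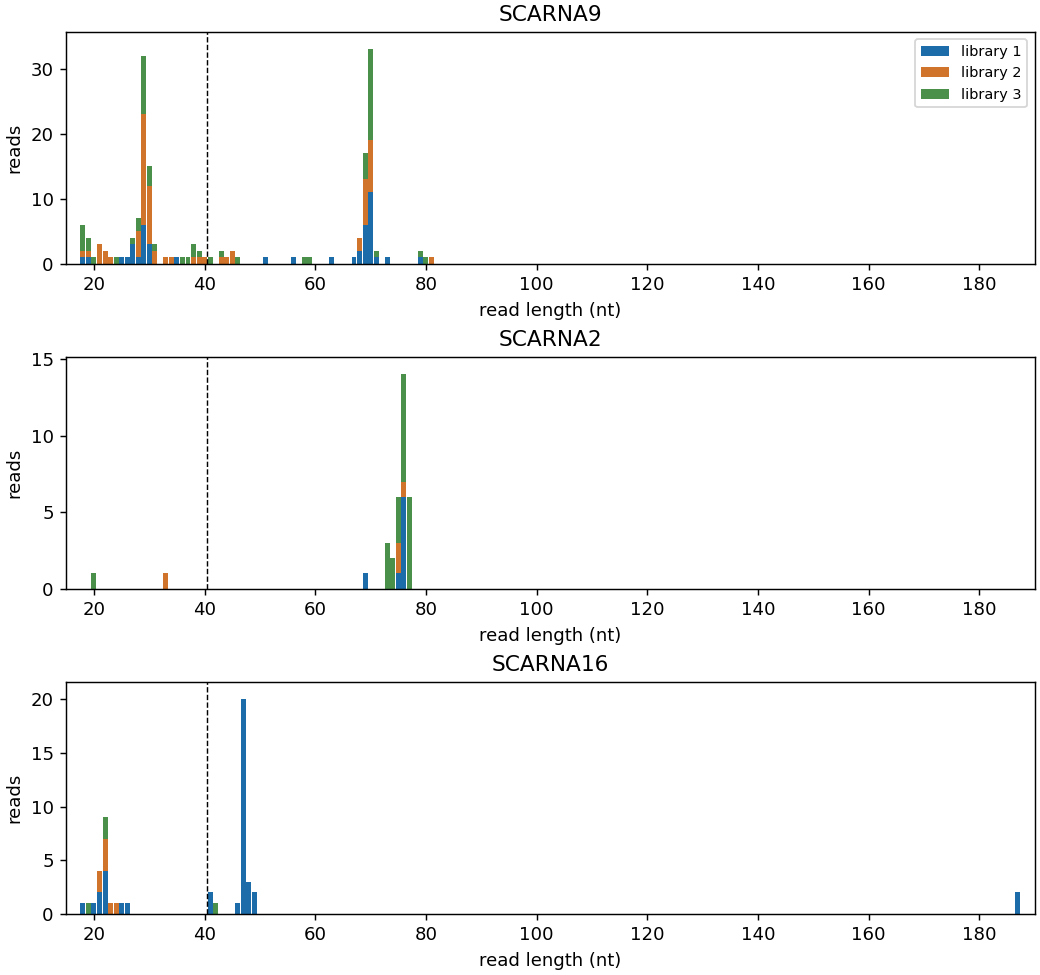
Reads (vertical axes) of each length (horizontal axes, nt) for SCARNA9, SCARNA2 and SCARNA16, with the 3 libraries stacked and a dashed line at the border between reads of up to 40 nt and longer ones. SCARNA9 has a peak at 29 nt and one at 70 nt, SCARNA2 one at 76 nt, and SCARNA16 one at 22 nt and one at 47 nt, the second from library 1.

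Whether short reads were over- or under-represented was tested against all RNAs with at least 10 counts. Of 207 RNAs, edgeR's quasi-likelihood test called 22 (10.6%) as having more short reads relative to longer ones than the typical RNA, and the same number as having fewer. The 3 scaRNAs were all among the 207, and 1 of them, SCARNA9, was called. Its reads were 18, 45 and 29 short against 26, 22 and 26 longer ones, a log2 ratio relative to the typical RNA of 2.43 ± 0.39 (SE), or 5.40-fold, with an edgeR adjusted p of 0.00733, while the median over all 207 was -0.16. Without library 2 the adjusted p of SCARNA9 was 0.117, and no RNA was called among the 200 then tested by edgeR, of which 57 had an unadjusted p below 0.05.

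SCARNA16 had 10, 7 and 3 short reads against 30, 0 and 1 longer ones, a log2 ratio of 2.41 ± 0.91 (SE). It did not pass (edgeR adjusted p = 0.0815). It did pass when short meant up to 30 nt (edgeR adjusted p = 0.000298), although its own short and longer counts were the same at both limits. That change therefore came through the fit over all RNAs. It also passed without library 1 (edgeR adjusted p = 0.0145), which left 7 and 3 short reads against 0 and 1 longer ones. It did not pass without library 2 (edgeR adjusted p = 0.307), without library 3 (edgeR adjusted p = 0.0573) or with no library block (edgeR adjusted p = 0.209). SCARNA2 had 0, 1 and 1 short reads against 8, 3 and 21 longer ones, a log2 ratio of -1.45 ± 1.02 (SE), and did not pass (edgeR adjusted p = 0.317). For SCARNA9 the size at which reads count as short did matter. With a limit of 24 nt its log2 ratio was 0.65 and its edgeR adjusted p 0.565. Its 5′ domain reads, with a median of 29 nt, then count as longer ones.

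The position of reads was tested in the same way, by whether the middle of a read lay after the middle of the RNA, in its 3′ part, or before it, in its 5′ part. Reads centred exactly on the middle were left out; they were 28.4% of all counts, and among the 3 scaRNAs only the 2 full-length SCARNA16 reads. Of 196 RNAs, edgeR called 37 (18.9%) as having more reads in the 3′ part and 49 (25%) as having more in the 5′ part. With TMM factors the calls were 61 and 51, and the median log2 ratio of all RNAs was 0.14 with them, against -0.33 without, so directions are relative to the scaling. A read that spans almost the whole RNA is also assigned to a part, through a small offset of its middle. A call therefore need not mean that reads cover that part alone, and how many calls rest on such reads was not tested. Placing reads by their 5′ ends instead gave 5 calls for the 3′ part and 151 for the 5′ part among 207 RNAs. By the middle of the read, 2 of the 3 scaRNAs, all tested, were called for the 3′ part.

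SCARNA2 had 8, 4 and 22 reads in the 3′ part and 0 in the 5′ part of every library. The 22 reads of library 3 belong to the HBII-382 entry, so their place in the 3′ part follows from how that entry was placed. Summed over libraries the 3′ part had at least 11.3-fold more, taking 3 counts over the group as the floor, and the exact 95% counting limit of the ratio was 8.73. The edgeR adjusted p was 0.0203. Without library 2 it was 0.0745. With only the 12 reads under mgU2-25/61, which had 0 in the 5′ part, it was 0.0467, the floor gave at least 4-fold, and the exact counting limit was 2.78.

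SCARNA16 had 37, 7 and 4 reads in the 3′ part against 1, 0 and 0 in the 5′ part, a ratio of 48.0 with an exact 95% counting interval of 8.21 to 1935. The edgeR adjusted p was 0.00395. SCARNA9 had 28, 23 and 26 reads in the 3′ part against 16, 44 and 29 in the 5′ part, and its log2 ratio of -0.12 ± 0.41 (SE) did not pass (edgeR adjusted p = 0.797). The parts of SCARNA9 were in the opposite order in library 1 to that in libraries 2 and 3, and the sign of its log2 ratio turned with TMM factors and without library 2.

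**Figure D4:**
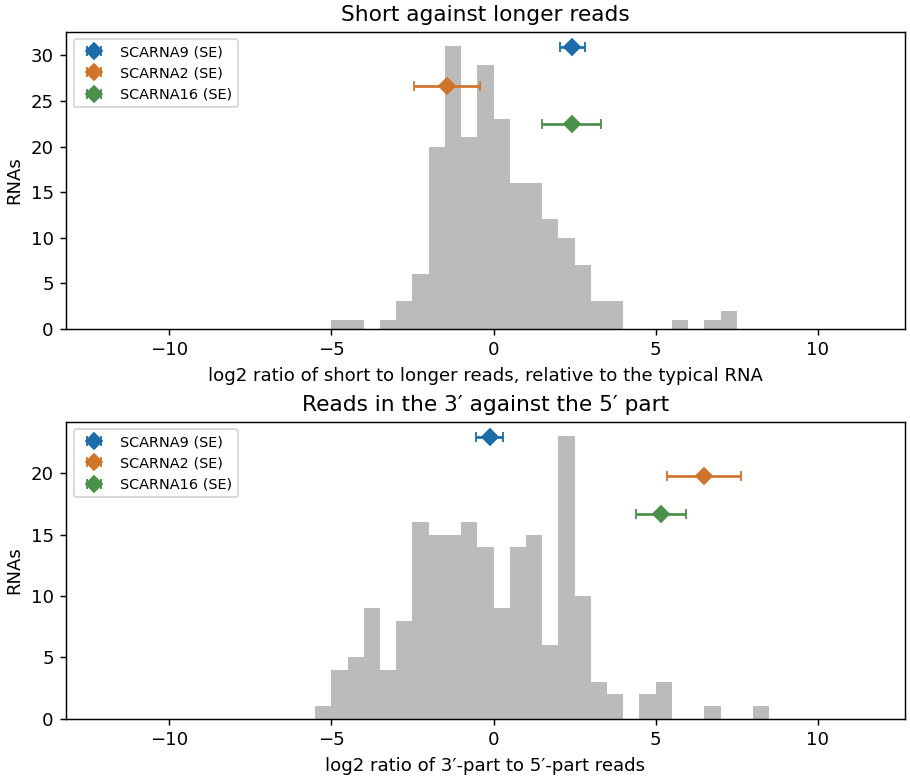
Distribution over all tested RNAs (grey bars, number of RNAs) of the log2 ratio of short to longer reads (upper panel) and of 3′-part to 5′-part reads (lower panel), with SCARNA9, SCARNA2 and SCARNA16 as diamonds with SE, drawn at heights without meaning. SCARNA9 lies at 2.43 for length and near 0 for position, where its sign turns with TMM factors, and SCARNA2 and SCARNA16 lie at 6.50 and 5.15 for position; the value of SCARNA2 is a fitted one with 0 reads in the 5′ part.

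The RNAs with the most similar pattern of levels over the 3 libraries were sought among the 207 with at least 10 counts, by the Euclidean distance between centred log2 shares. With 3 libraries, a small distance is easily reached and describes these libraries only. Nearest to SCARNA9 were SNORD74 (116, 165 and 133 counts, distance 0.09), SNORA32 (distance 0.13) and SNORD75 (distance 0.22). Nearest to SCARNA2 were SNORA18 (36, 18 and 90 counts, distance 0.07), SNORD12C (distance 0.14) and SNORD14A (distance 0.19). SCARNA16 had no neighbour so close: SNORD28 (31, 7 and 7 counts) lay at 0.79, SNORD54 at 1.32 and SNORD34 at 1.54.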

How the data were processed

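Per the file headers, the deposited files hold raw counts: each record gives an RNA entry, a read length, first and last position within the RNA, and the number of such reads. Per the submitters' processing notes, the authors used the build GRCh38.p10. The aligner and the read filters were not given in the sources used here. A deposited table of counts for the whole series was not used. Records whose end lay before their start were read as opposite-strand hits.

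Older names were matched through RefSeq, and coordinates and sequences came from GENCODE 29 and RefSeq GRCh38.p14. The members, lists and tests were chosen with earlier results of these data known. Named RNAs were the 3 members, the 3 RNAs nearest to each in pattern, each member's most frequent reads, and neighbours in the order of levels.

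Shares have exact (Clopper-Pearson) 95% intervals. Read position and read length were tested over all RNAs with at least 10 counts (for position, 10 counts placed in either part) summed over libraries by the quasi-likelihood test of edgeR 4.0.16 (R 4.3.3), with the library as a block and Benjamini-Hochberg adjustment at 0.05. Both parts of a library shared 1 library size for position, and TMM factors over the 6 columns were used for length. The middle of an RNA was set by the highest position seen. DESeq2 1.42.0 was an alternative. The scripts of both tests were first tested on simulated data. Both parts and both length classes come from the same library, which is where the pairing comes from. Tables, intervals and plots were made with SciPy 1.17.1, NumPy 2.4.6, pandas 2.3.3 and matplotlib 3.10.9 in Python 3.11.15.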

Additional observations from a re-analysis of the deposited data

Results flagged for a closer look

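A signal appeared that the comparisons did not set apart from the other SCARNA9 reads, so the SCARNA9 counts, shares and tests include it. On the strand opposite to SCARNA9, 6 reads were listed over the 3 libraries (1, 2 and 3 in libraries 1, 2 and 3), with lengths of 18 to 22 nt, all in the GT repeat at positions 154 to 189. They exceed the floor of 3 counts only as a sum. Without them the mean SCARNA9 share was 0.344%, against 0.356% with them. The complement of the last 19 nt of the repeat occurs in 669 GENCODE genes, and the origin of these reads was not tested. SCARNA2 and SCARNA16 had 0 reads on the opposite strand.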

How the results depend on the processing

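Of 168 recomputed values, 145 kept their direction and their side of the threshold, moved by less than the spread between libraries or, for counts of RNAs or positions, stayed within 1.5 times; such a count can hide a change of direction, as with TMM factors for position, where calls for the 3′ part outnumbered the others by 61 to 51, against 37 to 49. Counting each distinct record once raised the mean shares of SCARNA9 and SCARNA2 to 0.565% and 0.133%. As shares of scaRNA counts, a smaller total by construction, SCARNA9, SCARNA2 and SCARNA16 had 28.7%, 6.48% and 10.5%. For position, placing reads by their 5′ ends gave 156 calls (5 for the 3′ part), and the log2 ratio of SCARNA9 turned positive with TMM factors (0.30), with median-of-ratios factors (0.16) and without library 2 (0.29); for SCARNA2 leaving out each library gave 5.61 to 6.92, and for SCARNA9 -0.55 to 0.29. For length, median-of-ratios factors gave 68 calls, no filter gave 67, and leaving out each library gave 0 to 45; with column totals 39 RNAs had more and 24 had fewer short reads. SCARNA9 had 0.65 with the limit of 24 nt, chosen after seeing the data, 2.34 to 2.69 without each library and 2.18 without the GT repeat reads. SCARNA16 passed with short meaning up to 30 nt (3.03), up to 24 nt (4.09), column totals (2.68), median-of-ratios factors (2.51), DESeq2 (3.28) and no filter (2.47). Without each library it had 1.80 to 4.94, and of these fits it passed only in the one without library 1. Covered SCARNA16 positions were 67 to 187 without each library. Fits with no replicate block gave 84 calls for position and 34 for length and changed no call of the 3 RNAs. SCARNA2 and SCARNA16 could not be tested at 10 counts in every library, and SCARNA16 had 0 reads over 40 nt in library 2, so its level per length from such reads has no value. The causes were not tested. Depth limits SCARNA2 and SCARNA16 most, with as few as 4 counts in a library. Alternatives without the GT repeat reads or the HBII-382 entry were also chosen after seeing the data and changed no call of the 3 RNAs.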
